A study of Mus musculus with 10 samples.

Results

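*Eva1c*, *Samd3*, *Cybrd1* and *Serpinb1a* are 4 low-abundance genes of the mouse prefrontal cortex (PFC), out of 22000 genes in the deposited count table. They were chosen by the values of *Zbtb16* KO and WT mice in these same libraries, as genes whose KO and WT values lay apart, so the difference between genotypes is given for them as a description and without a test. *Eva1c*, *Samd3* and *Cybrd1* were higher in KO mice and *Serpinb1a* was lower. The separation was thin and depended on how depth was corrected, and for *Serpinb1a* 1 pair of mice overlapped when counts were divided by library totals alone. The data come from RNA-seq of the PFC of 5 KO and 5 WT mice, all labelled male and 7 weeks old, with 1 library of polyadenylated RNA per mouse, and the labels name no treatment. KO mice were homozygous for *lu* (strain B6.C3-*Zbtb16* lu/J), a point mutation that every cell carries, and not a deletion or a conditional allele. The labels give the other group as wild type.

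Libraries held between 30220122 and 51231439 counts, so that the floor of 3 counts corresponded to 0.0586 to 0.0993 CPM (counts divided by the total of the library and scaled to the same total in each). Transcripts of the mutated gene *Zbtb16* were still present, at 41.7 to 52.5 CPM in KO mice and 70.5 to 89.1 CPM in WT mice. KO mouse 3 went against its label, since 4 Y-linked genes had 1 count in all in this library and 4376 to 8182 counts in each of the others. Without it the KO means of *Eva1c*, *Samd3*, *Cybrd1* and *Serpinb1a* were 2.05, 2.34, 4.01 and 2.83 CPM (n = 4), and the log2 fold changes and gaps below are given with and without it. WT mouse 5 had the highest summed level of 6 striatal neuron markers, 407.6 CPM, against 173.7 to 231.9 CPM in the other WT mice and 215.8 to 334.8 CPM in KO mice.

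The 4 genes belong to unrelated families. EVA1C is a membrane protein with lectin domains that binds heparin and the axon guidance cue SLIT, and EVA-1 is a co-receptor for SLIT in worms. SAMD3 carries a sterile alpha motif (SAM), a fold through which many proteins bind each other, and its role in brain is little known. CYBRD1 (duodenal cytochrome b) is a membrane reductase of the cytochrome b561 family that passes electrons from ascorbate to ferric iron, the step before iron uptake in the gut. SERPINB1A is a clade B serpin, an intracellular inhibitor of serine proteases such as neutrophil elastase, cathepsin G and proteinase 3, and its transcript is also found in oligodendrocytes, the myelinating cells of the brain.

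The genes lie on 4 chromosomes of GRCm38, by the Gencode M21 annotation, and none of them is on chromosome 9, where *Zbtb16* lies. *Eva1c* (ENSMUSG00000039903.17) spans chr16:90826719-90905109 on the plus strand, between *Urb1* and *Cfap298*. An antisense gene, *Gm36363*, overlaps it, and the 2 genes share 0 exonic bases. *Samd3* (ENSMUSG00000051354.14) spans chr10:26229707-26272172 on the plus strand, 2.30 kb from *L3mbtl3*. *Cybrd1* (ENSMUSG00000027015.4) spans chr2:71117923-71142926 on the plus strand, between *Dcaf17* and *Dync1i2*. *Serpinb1a* (ENSMUSG00000044734.16) spans chr13:32842092-32851185 on the minus strand, between *Wrnip1* and its paralog *Serpinb1c*. Uniquely mapped reads of 101 bases could be placed on all of them, as 99.4% of the 101-base windows of the *Cybrd1* transcript and 100% of those of the other 3 genes occurred in no other annotated gene. The longest identical run between *Serpinb1a* and its paralogs was 81 bases, with *Serpinb1b*.

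The promoters of the 3 genes that were higher in KO mice differed in their content of CG dinucleotides. The sequences are shown because these genes moved in the same direction between genotypes, and each covers 250 bases before and 50 bases after the RefSeq start, on the plus strand of GRCm38.p6, with CG dinucleotides in capitals.
*Eva1c*, chr16:90830609-90830908: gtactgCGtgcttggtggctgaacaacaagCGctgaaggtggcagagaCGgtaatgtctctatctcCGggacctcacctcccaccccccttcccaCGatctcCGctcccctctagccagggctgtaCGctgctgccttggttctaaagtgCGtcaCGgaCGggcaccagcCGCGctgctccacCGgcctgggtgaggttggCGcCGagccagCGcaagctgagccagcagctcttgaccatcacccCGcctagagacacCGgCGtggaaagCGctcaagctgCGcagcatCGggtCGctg
*Samd3*, chr10:26229457-26229756: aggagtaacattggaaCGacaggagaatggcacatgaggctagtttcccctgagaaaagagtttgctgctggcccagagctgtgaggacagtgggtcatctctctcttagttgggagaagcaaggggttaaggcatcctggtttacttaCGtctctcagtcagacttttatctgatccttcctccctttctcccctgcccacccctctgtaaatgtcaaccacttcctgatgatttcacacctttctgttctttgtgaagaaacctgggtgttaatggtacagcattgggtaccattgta
*Cybrd1*, chr2:71117804-71118103: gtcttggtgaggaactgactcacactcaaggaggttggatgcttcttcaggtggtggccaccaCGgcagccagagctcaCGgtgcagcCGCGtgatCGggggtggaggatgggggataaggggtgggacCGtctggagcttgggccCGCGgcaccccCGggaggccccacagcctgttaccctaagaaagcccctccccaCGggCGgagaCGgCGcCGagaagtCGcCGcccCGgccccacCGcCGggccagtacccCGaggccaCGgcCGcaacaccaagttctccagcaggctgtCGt
The *Eva1c* and *Cybrd1* windows held 23 CG dinucleotides each and were 64.3% and 68.3% GC. The *Samd3* window held 2 CG dinucleotides and was 47.7% GC. Across 32851 RefSeq promoters of the same length the medians were 7 CG dinucleotides and 52.7% GC, and 78.5% of promoters held fewer than 23 while 14.1% held fewer than 2. The motif TATAAA, searched on both strands, was in none of the 3 windows and in 13.6% of all promoters. The motif CCAAT was in the *Samd3* window alone of these and in 37.4% of all promoters. The *Eva1c* and *Cybrd1* starts used by RefSeq lie inside the Gencode spans of the genes, downstream of their first annotated bases. *Serpinb1a* had no entry in the promoter table.

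*Eva1c* had 48, 76, 78, 89 and 95 counts in KO mice 1 to 5 and 32, 63, 20, 20 and 23 counts in WT mice 1 to 5. Divided by the total of each library, these were 1.34, 2.40, 2.38, 2.61 and 1.85 CPM in KO mice and 1.06, 1.33, 0.562, 0.555 and 0.661 CPM in WT mice. KO mouse 1 was the low one of its group, WT mice 1 and 2 were the high ones of theirs, and the lowest KO and highest WT values nearly met. The KO mean was 2.12 ± 0.518 CPM and the WT mean 0.833 ± 0.346 CPM (± SD, 5 mice each), 2.54-fold higher in KO mice. The log2 fold change from the edgeR model, which also holds 3 surrogate variables for unrecorded differences between libraries, was 1.49 ± 0.32 (SE), and 1.34 without KO mouse 3. In bulk tissue, a change in the number of cells of a type and a change in RNA per cell cannot be told apart. This holds for *Eva1c* as for the other 3 genes.

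*Samd3* had 99, 71, 49, 63 and 129 counts in KO mice and 17, 30, 19, 33 and 52 counts in WT mice. The levels were 2.76, 2.24, 1.50, 1.85 and 2.52 CPM in KO mice and 0.563, 0.634, 0.534, 0.915 and 1.49 CPM in WT mice. WT mouse 5 was well above the other WT mice and level with KO mouse 3, the library that went against its label. The KO mean was 2.17 ± 0.507 CPM and the WT mean 0.828 ± 0.402 CPM (± SD, 5 mice each), 2.63-fold higher in KO mice, with a log2 fold change of 1.42 ± 0.31 (SE). Without KO mouse 3 the log2 fold change was 1.47, and without WT mouse 5, the library with the highest striatal neuron marker sum, it was 1.77. Leaving out KO mouse 1, which had the highest CPM, gave 1.10. The part of striatal tissue in this value was not tested.

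*Cybrd1* had 132, 165, 134, 86 and 237 counts in KO mice and 41, 101, 81, 60 and 46 counts in WT mice. The levels were 3.68, 5.21, 4.10, 2.52 and 4.63 CPM in KO mice and 1.36, 2.13, 2.28, 1.66 and 1.32 CPM in WT mice. KO mouse 4 stood low and the other 4 KO mice were all well above every WT mouse, so this gene had the widest space between genotypes of the 4. The KO mean was 4.03 ± 1.02 CPM and the WT mean 1.75 ± 0.439 CPM (± SD, 5 mice each), 2.30-fold higher in KO mice. The log2 fold change was 1.02 ± 0.22 (SE), and 1.05 without KO mouse 3.

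*Serpinb1a* had 67, 145, 68, 119 and 71 counts in KO mice and 188, 298, 163, 206 and 225 counts in WT mice. The levels were 1.87, 4.58, 2.08, 3.49 and 1.39 CPM in KO mice and 6.22, 6.29, 4.58, 5.71 and 6.46 CPM in WT mice. KO mice 2 and 4 were high within their group, and KO mouse 2 reached the level of WT mouse 3, the lowest WT mouse. The KO mean was 2.68 ± 1.32 CPM and the WT mean 5.85 ± 0.765 CPM (± SD, 5 mice each), so that the KO mean was 45.8% of the WT mean. The log2 fold change was -1.15 ± 0.18 (SE), and -1.09 without KO mouse 3. Per kilobase of exon, *Serpinb1a* had the highest WT level of the 4 genes (2.54 CPM per kb, n = 5), followed by *Cybrd1* (0.328 CPM per kb), with *Eva1c* and *Samd3* both at 0.219 CPM per kb.

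**Figure D1:**
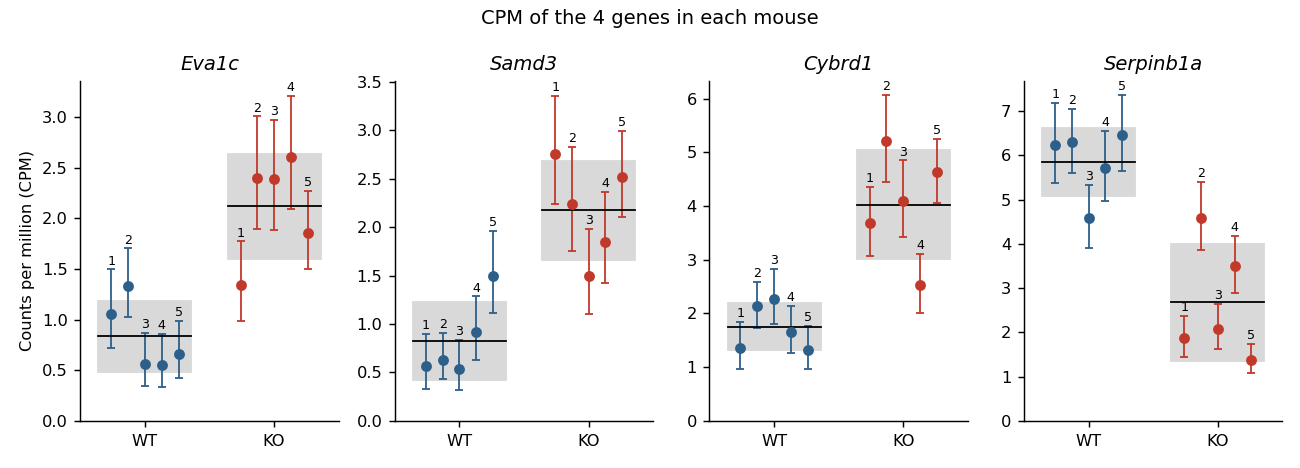
Level of the 4 genes in each mouse, in CPM on a linear axis from 0. Points are single mice with their replicate numbers, vertical bars are exact Poisson 95% intervals of the counts, black lines are means and grey boxes are ± 1 SD (n = 5). In *Eva1c*, *Samd3* and *Serpinb1a* the nearest KO and WT mice sit at the same height (1.34 and 1.33, 1.50 and 1.49, 4.58 and 4.58 CPM), while the nearest *Cybrd1* mice are at 2.52 and 2.28 CPM.

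How far apart the genotypes lay was then compared with the counting error. For *Eva1c* the nearest values, KO mouse 1 and WT mouse 2, differed by 0.00614 CPM, when 1 read was worth 0.0279 CPM in that KO library. The ratio of these values was 1.00, with an exact 95% counting interval of 0.675 to 1.49. For *Samd3*, KO mouse 3 exceeded WT mouse 5 by 0.00421 CPM, again less than 1 read (0.0306 CPM), with a counting interval of the ratio of 0.665 to 1.51. The gap in both genes was therefore smaller than the contribution of a single read when all mice were kept. Without KO mouse 3 the nearest *Samd3* values were 1.85 CPM in KO mouse 4 and 1.49 CPM in WT mouse 5, a ratio of 1.24, while the nearest mice of the other 3 genes were unchanged.

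*Cybrd1* was the only one of the 4 whose gap in CPM exceeded 1 read, with KO mouse 4 above WT mouse 3 by 0.246 CPM. The ratio of these values was 1.11, and its counting interval, 0.809 to 1.52, still included 1. For *Serpinb1a*, KO mouse 2 was 0.0028 CPM above WT mouse 3, so that the genotypes overlapped in CPM by this pair (ratio of WT to KO 0.999, counting interval 0.794 to 1.26). Of the 25 pairs of a KO and a WT mouse, the counting interval of the ratio excluded 1 in 23 pairs for *Eva1c*, 23 for *Samd3*, 23 for *Cybrd1* and 24 for *Serpinb1a*. These intervals cover counting error only, and not the spread between mice.

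Whether a gene counted as lying fully apart depended on the scale. In raw counts, with no correction for depth, *Eva1c* (48 in KO mouse 1 and 63 in WT mouse 2), *Samd3* (49 in KO mouse 3 and 52 in WT mouse 5) and *Cybrd1* (86 in KO mouse 4 and 101 in WT mouse 2) overlapped, while *Serpinb1a* did not (163 in WT mouse 3 and 145 in KO mouse 2). With library sizes scaled by TMM, a normalization that discounts genes with extreme ratios between libraries, all 4 genes lay apart, *Serpinb1a* with 4.59 CPM in WT mouse 3 and 4.54 CPM in KO mouse 2. The TMM gap was 0.04 for *Eva1c*, 0.03 for *Samd3*, 0.15 for *Cybrd1* and 0.02 for *Serpinb1a* on the log2 scale. With the size factors of DESeq2 in place of TMM the 4 genes also lay apart, by 0.05, 0.03, 0.15 and 0.02 in the same order.

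**Figure D2:**
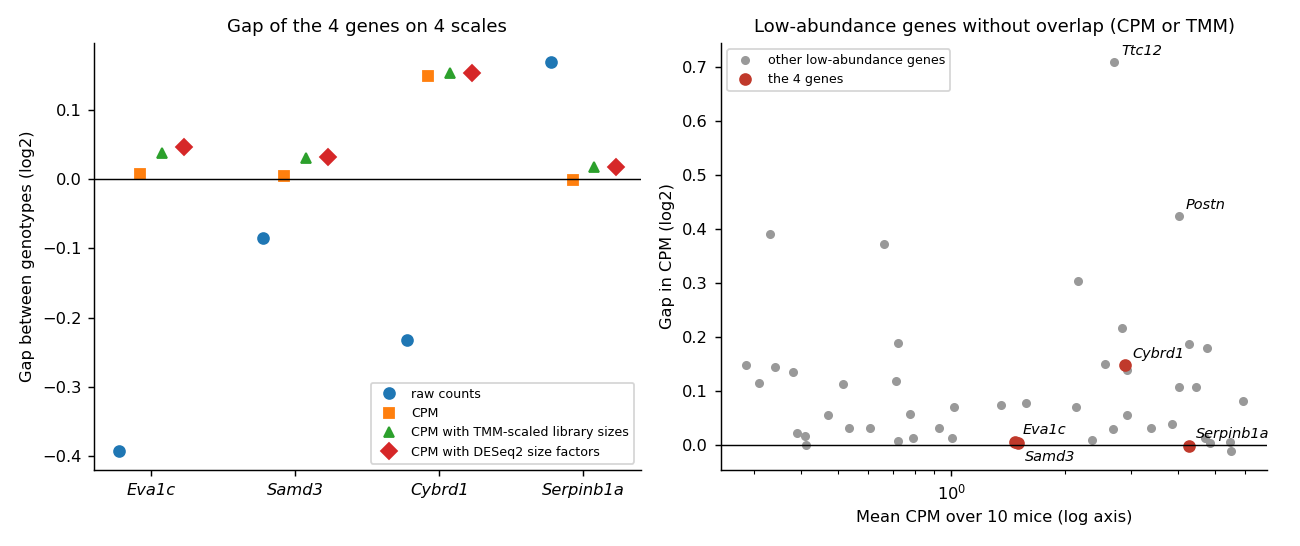
Left, log2 ratio of the nearest KO and WT values for each gene on 4 scales, where a value below 0 means that the genotypes overlapped. Right, the same ratio in CPM against mean CPM (log axis) for all low-abundance genes without overlap in CPM or TMM-scaled CPM. *Eva1c* (0.01) and *Samd3* (below 0.01) lie next to the line of 0 and *Cybrd1* at 0.15, while *Ttc12* (0.71) and *Postn* (0.42) lie highest.

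Read against the table as a whole, full separation was rare and mostly narrow. Of 14344 tested genes, 115 had all KO mice above all WT mice in CPM (0.802%) and 119 had all below (0.83%). With TMM-scaled CPM the shares were 0.899% and 0.683%. Among 3422 tested genes with a mean under 6 CPM, 25 had all KO mice above (0.731%), *Eva1c*, *Samd3* and *Cybrd1* included, and 21 had all KO mice below (0.614%). The median ratio of the nearest values over these 46 genes was 1.05 and the highest was 1.64. The number of the 46 with a smaller gap was 4 for *Eva1c*, 2 for *Samd3* and 34 for *Cybrd1*. In the edgeR quasi-likelihood test with Benjamini-Hochberg adjustment, 0.6% of tested genes were called higher and 0.244% lower in KO mice. The numbers called, 86 and 35, were 39 and 15 without KO mouse 3, and lay between 28 and 157 and between 10 and 91 over the 10 fits that left out 1 mouse. These shares give the rate in the table and are not evidence on the 4 genes, which were selected on the same contrast.

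The spread between mice was larger than counting error for each of the 4 genes in both genotypes. At these depths the counting error of a single library, 1 over the square root of the count, was 5.79% (298 counts of *Serpinb1a* in WT mouse 2) to 24.3% (17 counts of *Samd3* in WT mouse 1). For *Eva1c* the coefficient of variation (CV) was 24.5% in KO and 41.6% in WT mice, against 11.5% and 18.2% from counting alone. For *Samd3* it was 23.3% in KO and 48.5% in WT mice, against 11.3% and 18.3%. The WT mice, with fewer reads, thus had the larger relative spread in both genes, by counting and in total.

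For *Cybrd1* the CV was nearly the same in both genotypes, 25.3% in KO and 25.1% in WT mice, against 8.30% and 12.6% from counting. *Serpinb1a* was the most uneven, with a CV of 49.3% in KO mice and 13.1% in WT mice, against 10.2% and 6.89% from counting. As a ratio of the observed variance to the counting variance, *Serpinb1a* reached 23.4 in KO mice and 3.61 in WT mice. The other 3 genes lay between 3.96 (*Cybrd1* in WT mice) and 9.30 (*Cybrd1* in KO mice). The 2292 tested genes of 1 to 6 CPM had a median ratio of 4.21 in KO mice (quartiles 2.28 and 7.21) and of 3.34 in WT mice (quartiles 1.86 and 5.70), so *Serpinb1a* and *Cybrd1* in KO mice and *Samd3* in WT mice lay above the upper quartile. The biological CV that edgeR estimated for *Serpinb1a* was 26.9%, against a median of 15.7% over 707 genes of like abundance, while those of *Eva1c* (27.5% against 24.0%), *Samd3* (27.9% against 23.9%) and *Cybrd1* (21.6% against 18.2%) were closer to theirs.

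**Figure D3:**
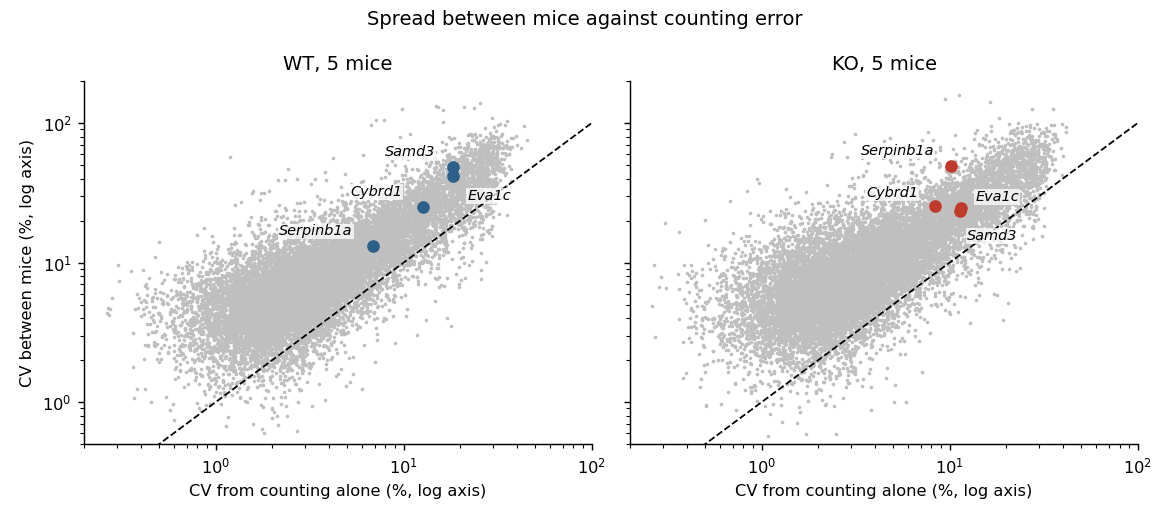
CV between the 5 mice of a genotype against the CV that counting alone gives, both in percent on log axes, for the tested genes (grey) and the 4 genes (coloured); the dashed line marks equal values. The 4 genes lie above the line in both genotypes, and *Serpinb1a* in KO mice is farthest from it (49.3% against 10.2%).

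The spread of *Serpinb1a* went together with oligodendrocyte markers. The summed level of 10 oligodendrocyte markers, among them the myelin genes *Mbp*, *Mag* and *Mog*, was 6438, 9489, 6609, 8163 and 6575 CPM in KO mice 1 to 5 and 7724, 8141, 6693, 7314 and 8530 CPM in WT mice 1 to 5. KO mice 2 and 4, which had the high *Serpinb1a* levels of their group, had the high marker sums, and WT mouse 3, lowest for *Serpinb1a* among WT mice, was lowest for the markers. The sums themselves overlapped between genotypes (7455 ± 1338 CPM for KO and 7680 ± 715 CPM for WT, ± SD, 5 mice each), with an adjusted p of 0.847 over 11 lists in an exact two-sided permutation test, whose smallest possible p is 0.00794, and 0 of the 10 markers were called in either direction by edgeR, with 2 at an unadjusted p under 0.05. Over all 14344 tested genes, 1522 had an unadjusted p under 0.05 in edgeR. DESeq2 called 1 of the 10 markers, *Ermn*, lower in KO mice, beside 151 higher and 78 lower of all 14344 tested genes.

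Divided by the marker sum, *Serpinb1a* was 2.90, 4.83, 3.14, 4.27 and 2.11 CPM per 10000 marker CPM in KO mice and 8.05, 7.73, 6.84, 7.81 and 7.58 in WT mice. On this scale, which was chosen after the values had been seen, the genotypes no longer overlapped and the nearest values were 4.83 in KO mouse 2 and 6.84 in WT mouse 3. The CV fell from 13.1% to 6.04% in WT mice and from 49.3% to 31.7% in KO mice. The WT value after division was below the 6.89% that counting alone gives for *Serpinb1a* in these mice. How much of the fall rests on the markers was not tested. The KO mean was 3.45 ± 1.09 and the WT mean 7.60 ± 0.459 (± SD, 5 mice each), so that the former was 45.4% of the WT mean, close to the share before division. *Serpinb1a* was chosen on the genotype difference, so no test is given for it on this scale either.

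**Figure D4:**
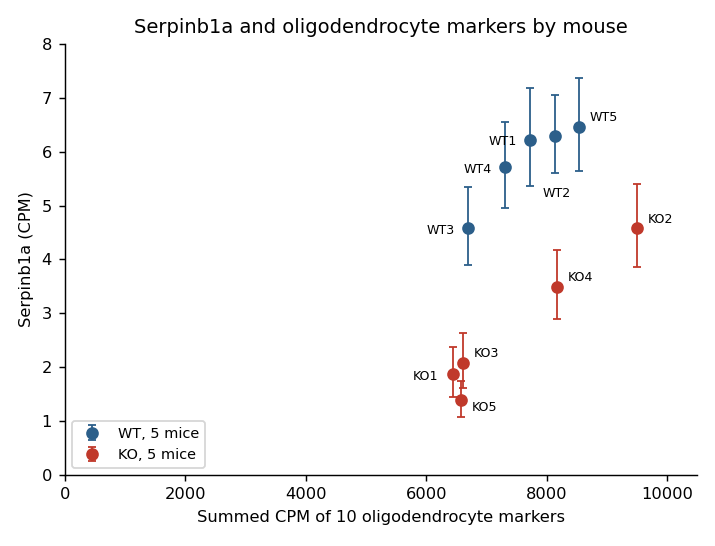
*Serpinb1a* in CPM, with exact Poisson 95% counting intervals, against the summed CPM of 10 oligodendrocyte markers in each mouse, on linear axes from 0. KO mouse 4 lies below WT mouse 2 at a similar marker sum (8163 and 8141 CPM of markers, 3.49 and 6.29 CPM of *Serpinb1a*), as KO mouse 3 does below WT mouse 3 (6609 and 6693 CPM of markers, 2.08 and 4.58 CPM).

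The genes most like each member across the 10 libraries were sought after the mean of each genotype had been subtracted from log2(CPM + 1), so that likeness did not rest on the genotype difference. For *Serpinb1a* the top 3 of all tested genes were *Plekhb1*, *Tmem88b* and *Tmem229a*, each with a Pearson r of 0.98. *Tmem88b* was lower in KO mice by edgeR (54.5 CPM in KO and 66.0 CPM in WT mice, log2 fold change -0.27, adjusted p = 0.0428), while *Plekhb1* (-0.16, adjusted p = 0.340) and *Tmem229a* (-0.16, adjusted p = 0.192) did not pass the test. All 3 were far more abundant than *Serpinb1a*, with means of 60.3 to 243.2 CPM.

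The other members had less close likenesses. For *Eva1c* these were *Scoc* and *Zfp212* (both r = 0.92) and *Ccdc81* (r = 0.91), for *Samd3* *Emp3* (r = 0.93), *Col2a1* (r = 0.92) and *Mrpl23* (r = 0.91), and for *Cybrd1* *Gm10073* (r = 0.95), *Nop56* (r = 0.93) and *Sdccag3* (r = 0.92). None of these 9 genes passed the edgeR test between genotypes. These are the highest of 14344 values of r from 10 libraries and are given as a description. Among the 4 genes themselves, r was -0.56 for *Eva1c* with *Samd3* and 0.55 for *Eva1c* with *Serpinb1a*, and between -0.18 and -0.03 for the other 4 pairs, with no p given for any of them.

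The families and pathways of the 4 genes were then compared between the genotypes. Of 80 related genes in 6 lists, 59 were tested, 0 were called higher and 1 was called lower in KO mice (edgeR with Benjamini-Hochberg adjustment over all tested genes), with 10 at an unadjusted p under 0.05. Over all 14344 tested genes, 0.6% were called higher and 0.244% lower and 1522 had an unadjusted p under 0.05. With DESeq2, 0 related genes were called higher and 2, *Robo3* and *Tfrc*, lower, beside 151 higher and 78 lower of all 14344 tested genes. The median log2 fold change was 0.01 over the related genes and less than 0.01 in size over all tested genes.

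For *Eva1c*, all 15 genes of a list of its own family, SLIT-ROBO signalling and latrophilins were tested. By edgeR 0 were called in either direction, with 2 at an unadjusted p under 0.05. DESeq2 called 1, beside 151 higher and 78 lower of all tested genes. Their fold changes were -0.39 to 0.23 on the log2 scale. The most abundant of them were the latrophilin *Adgrl1* (809.0 CPM in KO and 794.6 CPM in WT mice), the SLIT-ROBO GTPase activating protein *Srgap3* (423.4 and 425.2 CPM) and the SLIT receptor *Robo2* (151.0 and 151.6 CPM). *Robo3*, the receptor of commissural axons, was just short of a call in edgeR (log2 fold change -0.39, adjusted p = 0.0508) and is named here after its value was seen. It was called lower by DESeq2 (adjusted p = 0.0034), by edgeR with DESeq2 size factors (0.0495) or with no filter (0.0396) and in 4 of the 10 fits that left out 1 mouse, and not without surrogate variables (0.240). The paralogs *Eva1a* (mean over all mice 12.3 CPM, log2 fold change 0.06) and *Eva1b* (1.54 CPM, -0.14) were also singled out afterwards, and their adjusted p-values were 0.872 and 0.909.

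For *Samd3*, 11 of 13 other genes with a SAM domain were tested and 0 were called in either direction by edgeR or DESeq2. In edgeR 4 of the 11 had an unadjusted p under 0.05, beside 1522 of all 14344 tested genes. The 3 most abundant were *Samd8* (107.3 CPM in KO and 110.2 CPM in WT mice), *Samd4b* (82.2 and 75.8 CPM) and *Samd12* (69.8 and 60.7 CPM), with adjusted p-values of 0.922, 0.207 and 0.121. For *Cybrd1*, 8 of 10 genes in a list of cytochrome b561 and STEAP reductases and related genes were tested. Of these, 0 were called in either direction by edgeR or DESeq2, and 0 had an unadjusted p under 0.05 in edgeR. *Frrs1l*, a component of AMPA receptor complexes (557.8 CPM in KO and 584.0 CPM in WT mice), *Cyb561* (73.0 and 73.1 CPM) and *Cyb561d1* (28.1 and 27.6 CPM) were the most abundant, and their log2 fold changes lay between -0.02 and 0.04.

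Of 21 genes of iron transport and storage, 19 were tested. In edgeR 4 of the 19 had an unadjusted p under 0.05, beside 1522 of all 14344 tested genes. By edgeR 0 were called higher and 1 was called lower, beside 0.6% and 0.244% of all tested genes. This was *Tfrc*, the transferrin receptor through which cells take up iron, with a KO mean of 184.3 ± 13.9 CPM and a WT mean of 203.2 ± 7.67 CPM (± SD, 5 mice each, log2 fold change -0.16 ± 0.03 SE, adjusted p = 0.0308 in edgeR). The call was made in 5 of the 10 fits that left out 1 mouse (not without KO mice 1, 3 or 4 or WT mice 3 or 4), and not in the fit without surrogate variables (adjusted p = 0.526). The ferritin subunits *Fth1* (1471 CPM in KO and 1503 CPM in WT mice) and *Ftl1* (223.6 and 220.7 CPM) and the iron chaperone *Pcbp2* (169.0 and 165.3 CPM) had adjusted p-values of 0.967, 0.923 and 0.763.

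For *Serpinb1a*, 4 of 16 other clade B serpins were tested, 0 were called in either direction by edgeR or DESeq2, and 0 had an unadjusted p under 0.05 in edgeR. Its paralogs *Serpinb1b* and *Serpinb1c* had 106 and 1 counts over all 10 libraries, while *Serpinb8* (30.2 CPM in KO and 29.2 CPM in WT mice), *Serpinb6a* (27.2 and 26.2 CPM) and *Serpinb9* (7.18 and 6.81 CPM) were the most abundant of the family. Of 5 proteases that SERPINB1 is known to inhibit or restrain, 2 were tested and neither was called by edgeR or DESeq2 or had an unadjusted p under 0.05 in edgeR. These were *Casp1* (1.21 CPM in KO and 1.18 CPM in WT mice) and *Prtn3* (0.994 and 1.15 CPM). Neutrophil elastase (*Elane*) and cathepsin G (*Ctsg*) had 1 count each over all libraries, and the 7 neutrophil markers summed to 0.0211 to 1.32 CPM per library.

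**Figure D5:**
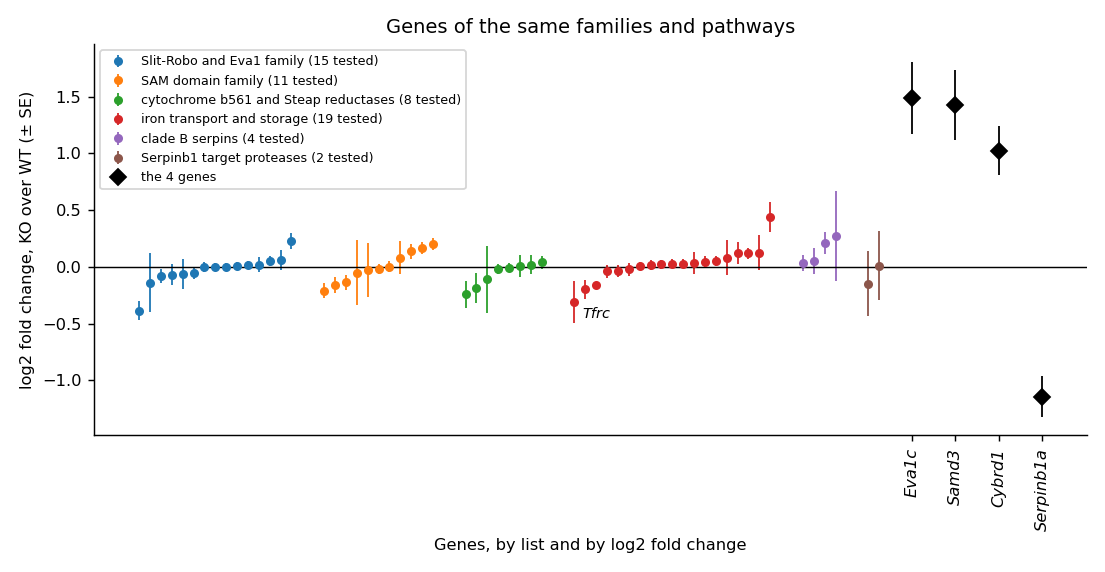
Log2 fold change (KO over WT, ± SE) from the edgeR model for the 59 tested related genes, ordered within each of 6 lists, and for the 4 genes (black diamonds). The related genes lie between -0.39 and 0.44, and the 4 genes, which were selected on this contrast, lie at 1.49, 1.42, 1.02 and -1.15. *Tfrc* is the related gene that was called.

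The cell type makeup, as far as marker sums show it, overlapped between the genotypes. All 11 lists, for oligodendrocytes and their precursors, astrocytes, microglia, endothelial and mural cells, meningeal fibroblasts, choroid plexus, deep-layer and striatal neurons and neutrophils, had overlapping ranges in KO and WT mice, with adjusted p-values of 0.655 to 0.881 (exact permutation tests). The smallest possible unadjusted p was 0.00794, so after adjustment over 11 lists no list differing alone could have fallen under 0.05. These adjusted p-values therefore cannot exclude a difference in a single cell type. Of the marker genes 65 were tested, among them 4 of 5 for choroid plexus and 0 of 7 for neutrophils after the filter on low counts. Of the 65, 0 were called by edgeR in either direction and 14 had an unadjusted p under 0.05. This was a larger share than the 1522 of all 14344 tested genes. DESeq2 called 1 of the 65 higher (*Crym*, a deep-layer marker) and 1 lower (*Ermn*), both named after their values were seen. Over all 14344 tested genes it called 151 higher and 78 lower. Deep-layer neuron markers were nearest to a difference, with 474.9 ± 19.6 CPM for KO and 442.8 ± 31.3 CPM for WT (± SD, n = 5 each, unadjusted p = 0.103 in the exact permutation test). KO mouse 2, which had the highest *Cybrd1* and *Serpinb1a* levels of its group, also had the highest KO sum in most lists. These were the lists for oligodendrocytes and their precursors, astrocytes, microglia, endothelial and mural cells, meningeal fibroblasts and choroid plexus. The lists for deep-layer neurons, striatal neurons and neutrophils were not among them. Its meningeal fibroblast sum was 82.7 CPM, against 36.4 to 55.2 CPM in the other KO mice. KO mouse 5, with the next highest *Cybrd1* level (4.63 CPM), had a meningeal fibroblast sum of 44.7 CPM. The part of these cell types in the *Cybrd1* level was not tested.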

How the data were processed

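The authors aligned 101-base paired-end reads of stranded mRNA libraries to mm10 with STAR (2.7.1a), kept uniquely mapped reads and counted them on exons of Gencode M21 protein-coding genes with HTSeq (0.9.1). They deposited these counts without normalization. Whether strand was used in counting is not given in the sources used here.

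CPM were computed as counts over the library total. Genotypes were compared with edgeR (4.0.16) under R 4.3.3. The quasi-likelihood test was run after TMM scaling, with the tool's filter on low counts (14344 genes kept), 3 surrogate variables from sva (3.50.0, on log2(CPM + 1), seed 1) and Benjamini-Hochberg adjustment at a threshold of 0.05. The SE of an edgeR log2 fold change is its absolute value divided by the square root of the F statistic of this test. DESeq2 (1.42.0), RIN or the replicate number as covariates, other scalings, no filter and leaving out each mouse were alternatives. The edgeR fit was tested on simulated counts. Marker sums were compared by exact permutation tests in scipy (1.17.1). Counting intervals are exact (Poisson for 1 count, Clopper-Pearson for ratios) at 95%, and cover counting error only. They take each read as independent, and reads carried no molecular identifiers with which to check this.

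The 4 genes and all lists were chosen with earlier results of these data known. The genes named beside them are, per related list, those called and up to 3 more of highest mean CPM, the 3 genes most like each member, neighbours on the genome, *Zbtb16*, and the 3 other low-abundance genes without overlap of largest log2 fold change. Any other gene is said to be named after its value was seen. The labels do not say more of the mice than genotype, sex and age. The p-values set the difference between genotypes against the spread between these libraries, in edgeR after 3 surrogate variables taken from the same data. Of the marker lists, 2 genes were not analysed here. Promoters come from RefSeq (GRCm38.p6), which matched 3 of the 4 genes.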

Additional observations from a re-analysis of the deposited data

Results flagged for a closer look

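In 32 groups of 5 libraries (the 4 genes, the 11 marker sums and *Serpinb1a* per oligodendrocyte marker sum, in each genotype), 2 had a library far from the other 4 by Dixon's test at the 95% level, which chance flags in about 1 of 20 groups. WT mouse 5 had a striatal neuron marker sum of 407.6 CPM, against 231.9 CPM in the next WT mouse, and it is also the mouse that brings *Samd3* in the WT group up to the KO level. Among KO mice, the highest *Samd3* level was in KO mouse 1, which had the lowest striatal sum (215.8 CPM). The next highest was in KO mouse 5, which had the highest sum (334.8 CPM). KO mouse 3 had a neutrophil marker sum of 1.01 CPM, against 0.332 CPM in the next KO mouse, a level of few reads, and *Serpinb1a* in this mouse was 2.08 CPM, the median of the KO group. None of the 8 groups of values of the 4 genes was flagged.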

How the results depend on the processing

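The log2 fold changes of the 4 genes kept their direction under every alternative listed here. Over 6 other models they were 1.33 to 1.51 for *Eva1c*, 1.40 to 1.44 for *Samd3*, 1.03 to 1.20 for *Cybrd1* and -1.22 to -1.14 for *Serpinb1a*, and on leaving out 1 mouse 1.34 to 1.82, 1.10 to 1.77, 0.889 to 1.19 and -1.29 to -0.902.

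The gap did not hold in this way. As the log2 ratio of the nearest values, it turned in raw counts to -0.39 for *Eva1c*, -0.086 for *Samd3* and -0.23 for *Cybrd1*. For *Serpinb1a* it went from -0.00088 in CPM to 0.17 in raw counts, 0.0174 with TMM, 0.0176 with DESeq2 size factors and 0.50 per oligodendrocyte marker sum (an alternative chosen after seeing the data). On leaving out 1 mouse it was 0.01 to 0.48 for *Eva1c* (largest without KO mouse 1), 0.0041 to 0.71 for *Samd3* (without WT mouse 5), 0.15 to 0.69 for *Cybrd1* (without KO mouse 4) and -0.00088 to 0.39 for *Serpinb1a* (without KO mouse 2). Genes without overlap numbered 160 to 209 (KO above) and 168 to 282 (KO below) on leaving out 1 mouse, where fewer values have to lie apart.

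The number of genes called depended on the surrogate variables, the tool and single mice. It was 86 higher and 35 lower with them, 22 and 8 without, 27 and 11 with RIN in their place, and 151 and 78 with DESeq2. Leaving out 1 mouse gave 28 to 157 higher, lowest without WT mouse 3 and highest without KO mouse 2, and 10 to 91 lower, lowest without KO mouse 1 and highest without KO mouse 2. Related genes called lower numbered 0 without surrogate variables and with RIN, 2 with DESeq2 size factors, with no filter and with DESeq2, and 0 to 2 on leaving out 1 mouse. Those called higher numbered 0 to 1 on leaving out 1 mouse (*Samd12* without KO mouse 2, *Samd4b* without KO mouse 5, named after their values were seen). The cause of these shifts was not tested.

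With the replicate number as a block, 18 genes were called higher and 6 lower, and 0 related genes were called lower. The labels do not say whether the numbers pair the mice. Between same-numbered libraries r lay between -0.107 and 0.171, and 4 of 10 libraries correlated best with their own number. These correlations cannot decide it, since they do not show whether mice shared a litter or a batch. Depth sets a floor of 0.0586 to 0.0993 CPM per library, and all values of the 4 genes were above it.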

Other observations

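Other low-abundance genes lay apart between the genotypes in the same way, and those with the widest gaps were not among the 4. *Ttc12*, a gene of cilia assembly, had 3.15 to 5.21 CPM in KO mice and 1.16 to 1.92 CPM in WT mice (log2 fold change 1.17), with the highest ratio of nearest values of the 46 genes, 1.64. It lies on chromosome 9, 0.601 Mb from *Zbtb16*. *Postn*, which encodes the matrix protein periostin, had 4.11 to 6.87 CPM in KO mice and 2.01 to 3.06 CPM in WT mice (log2 fold change 1.11). Both are named after their values were seen, as the 2 genes with the widest gaps among the 46.

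The non-members with the largest fold changes had lower counts, and the 3 given here were not called by edgeR. *Rpe65*, a retinoid isomerase, had 0.214 to 0.668 CPM in KO mice and 0.702 to 2.96 CPM in WT mice (log2 fold change -1.56). *Slc44a4*, of the choline transporter-like family, had 0.0632 to 0.275 CPM in KO mice and 0.305 to 0.459 CPM in WT mice (-1.33), and *Lingo4* had 0.672 to 1.23 CPM in KO mice and 0.172 to 0.590 CPM in WT mice (1.31). The adjusted p in edgeR was 0.0879 for *Rpe65*, 0.337 for *Slc44a4* and 0.136 for *Lingo4*. The lowest *Slc44a4* value lies within the range of the floor, 0.0586 to 0.0993 CPM. Of the 45 genes without overlap placed by symbol, 3 (6.67%) were on chromosome 9, against 169 of 3116 low-abundance tested genes (5.42%). These 3 were *Ttc12*, *Bco2* and *Gk5*, at 0.601, 1.70 and 47.3 Mb from *Zbtb16*. *Bco2* and *Gk5* are named after their values were seen. This share is of the whole chromosome, and the part of sequence near the mutation in the levels of *Ttc12* and *Bco2* was not tested.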
